A study of Mus musculus with 4 samples.

Results

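Stress-state endothelial cells were the lung endothelial cells in which 4 acute-response genes, Atf3, Egr1, Socs3 and Ier3, together had at least 6 unique molecular identifiers (UMIs, counts of captured transcripts) with at least 3 of the 4 genes detected. Endothelial cells were barcodes with at least 500 genes, at most 10% mitochondrial UMIs, at least 2 UMIs over Pecam1, Cdh5, Cldn5, Egfl7, Ramp2 and Tie1, and no UMI of Ptprc, Epcam, Col1a1 or Col1a2. Of 14854 such cells in 4 libraries, 3764 met the rule, and the other 11090 endothelial cells were the comparison. The study sequenced lung cells selected with beads for CD31 after removal of CD45-positive cells, 1 library per group. The groups were conditional knockout mice labelled M3cKO PNX, conditional knockout mice labelled Foxo1cKO PNX, wild-type mice labelled WT PNX, and sham-operated wild-type mice. The first 3 were taken on day 7 after PNX, which in mouse lung work stands for pneumonectomy, the removal of part of the lung that is followed by regrowth of the rest. The labels do not state the gene behind "M3", the Cre driver, the ages or how many mice went into a library.

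Atf3, a transcription factor of the ATF family, and Egr1, a zinc-finger transcription factor, are immediate early genes: their transcripts appear within minutes of a signal without new protein synthesis. Socs3 encodes an inhibitor of signalling through the shared cytokine receptor subunit gp130 and STAT3, and Ier3 encodes a survival-related protein induced by growth factors, NF-kB and stress. In endothelium such genes respond to cytokines, thrombin, flow, wounding and heat, and they are followed by adhesion molecules, feedback inhibitors and chaperones. They are also known to be induced while tissue is digested. All 4 groups went through the same collagenase digestion (2 mg/mL, 37 °C, 40 min) before capture, so transcripts present in the animal and transcripts made during digestion cannot be told apart.

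The rule chose 668 of 2491 endothelial cells in M3cKO PNX, 978 of 3811 in Foxo1cKO PNX, 1228 of 3887 in WT PNX and 890 of 4665 in sham. Because the values of the 4 genes chose the cells, their levels are given as a description. Atf3 stood at 1669, 676, 831 and 1002 CPM (UMIs of the gene divided by all UMIs and scaled to 1000000) in stress-state cells of M3cKO PNX, Foxo1cKO PNX, WT PNX and sham, against 94.0, 57.5, 74.7 and 97.6 CPM in the other endothelial cells. Egr1 stood at 1805, 1250, 1467 and 1468 CPM in stress-state cells of the same 4 libraries, against 72.2, 200, 221 and 121 CPM in the others. Socs3 had 1793, 1416, 1344 and 1864 CPM in stress-state cells and 197, 255, 243 and 297 CPM in the others, and Ier3 had 2199, 1258, 1516 and 1893 CPM against 292, 264, 309 and 366 CPM. Cells with all 4 genes made up 66.8% of stress-state cells in M3cKO PNX, 55.0% in Foxo1cKO PNX, 59.2% in WT PNX and 57.5% in sham, and the median cell had 18, 15, 18 and 14 UMIs of the 4 genes. Atf3 was the gene most often missing from cells with exactly 3 in the Foxo1cKO PNX, WT PNX and sham libraries, at 46.1%, 45.1% and 39.7% of them, and Egr1 in M3cKO PNX, at 37.8%. The threshold cut a continuum. In WT PNX, cells just inside (6 UMIs, at least 3 genes, 72 cells) had 1463 CPM of Fos and 1059 CPM of Zfp36, while cells just outside (5 UMIs, at least 3 genes, 82 cells) had 1032 CPM of Fos and 874 CPM of Zfp36. In M3cKO PNX, Foxo1cKO PNX and sham, Fos had 1196 against 956, 1300 against 1176 and 1113 against 870 CPM. Zfp36 had 1512 against 911 CPM in M3cKO PNX. It was lower just inside in Foxo1cKO PNX (920 against 959 CPM) and sham (1240 against 1431 CPM).

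Of 22 junction and identity genes outside the gate, none was 1.5-fold higher or lower in any library. Pecam1, which encodes CD31 and is a gate gene, so that its presence was fixed by the gate, had 3095, 2948, 2750 and 3223 CPM in stress-state cells and 3479, 3145, 2927 and 3320 CPM in the others. Stress-state cells were deeper than the others: the median was 2668 against 1863 UMIs in M3cKO PNX, 3257 against 2284 in Foxo1cKO PNX, 3442 against 2407 in WT PNX and 2439 against 1739 in sham. Median mitochondrial shares were alike, 6.29% to 6.49% against 6.48% to 6.65%. High doublet scores were found in 5.99%, 3.27%, 5.62% and 6.85% of stress-state cells and in 3.13%, 2.97%, 3.31% and 3.58% of the others. Clusters led by genes of B, T or NK, myeloid, platelet, epithelial or fibroblast cells held 4.19%, 6.34%, 8.63% and 4.27% of stress-state cells and 6.86%, 7.80%, 11.02% and 3.52% of the others. Summed over 8 macrophage and monocyte markers, levels were 165, 134, 204 and 109 CPM in stress-state cells and 155, 88.6, 152 and 65.5 CPM in the others, and inside endothelial clusters alone 54.2, 43.7, 78.9 and 52.6 CPM against 38.7, 19.2, 46.0 and 30.7 CPM. Platelet markers summed to 67.1, 74.4, 163 and 27.6 CPM in stress-state cells and 616, 536, 627 and 42.9 CPM in the others, and inside endothelial clusters alone 7.46, 22.6, 49.5 and 20.4 CPM against 8.40, 20.4, 68.6 and 13.9 CPM. Epithelial markers had larger sums, 480, 524, 1195 and 996 CPM in stress-state cells and 560, 669, 1022 and 841 CPM in the others. Inside endothelial clusters alone they had 451, 395, 456 and 647 CPM against 352, 397, 449 and 581 CPM. The part of depth, doublets and free RNA in the results was not tested except where a thinned or reduced value is given. Cells with Y-linked but no Xist transcripts occurred in every library, while cells with Xist alone numbered 932 in Foxo1cKO PNX and 938 in WT PNX, with 0 in the other libraries. The Foxo1cKO PNX and WT PNX libraries therefore held cells of both sexes. Between 68 and 111 barcodes were shared by each pair of libraries, and among stress-state cells 0 to 4.

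With 1 library per group, nothing separates a difference between groups from a difference between libraries, no test between groups was possible, and the intervals given cover counting error only. The stress-state share of endothelial cells was 26.8% in M3cKO PNX (95% exact binomial interval 25.1% to 28.6%), 25.7% in Foxo1cKO PNX (24.3% to 27.1%), 31.6% in WT PNX (30.1% to 33.1%) and 19.1% in sham (17.96% to 20.2%). A threshold in UMIs is easier to reach in a deep cell, so cells with at least 2000 UMIs were also thinned at random to exactly 2000 and the rule applied again; shallower cells, numbering 1197, 1275, 1147 and 2654 in the 4 libraries, were left out. The thinned shares were 28.6% in M3cKO PNX (26.1% to 31.1%), 19.2% in Foxo1cKO PNX (17.7% to 20.8%), 23.8% in WT PNX (22.2% to 25.4%) and 19.9% in sham (18.2% to 21.8%). WT PNX was above sham on both scales. Foxo1cKO PNX was above sham by its unthinned share and within sham's interval after thinning, and M3cKO PNX was below WT PNX before thinning and above it after. Male-type cells alone had thinned shares of 27.3%, 17.3%, 20.4% and 22.3%, which puts WT PNX inside the sham interval of 19.3% to 25.5%. The order of the libraries therefore depended on depth and on which cells were compared. Among cells with Ptprc and no endothelial UMI, which need not lack these genes, 6.98%, 2.54%, 3.33% and 4.95% met the same rule in the 4 libraries, at median depths of 2424, 2127, 1969 and 1822 UMIs.

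**Figure D1:**
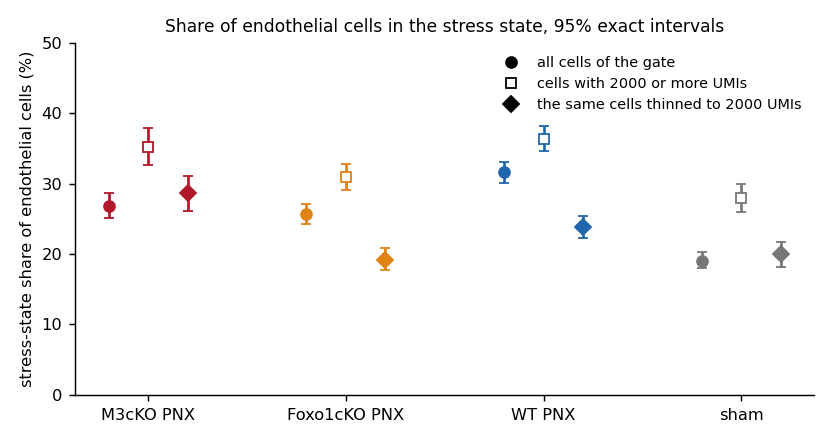
Share of endothelial cells in the stress state (vertical axis, percent) in each library, for all cells, for cells with 2000 or more UMIs, and for the latter thinned to 2000 UMIs; bars are 95% exact binomial intervals. At equal depth M3cKO PNX, at 28.6%, lies above the other libraries, which span 19.2% to 23.8%.

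Outside the 4 rule genes, 20 of 3139 genes measured in every library (0.637%) were at least 2-fold higher in stress-state than in other endothelial cells in all 4 libraries, on the scale log2(CPM + 5) with the higher side at 50 CPM or more. No gene was 2-fold lower in all 4 (0%). The 20 were Fos, Fosb, Nfkbiz, Zfp36, Apold1, Selp, Junb, Hspa1a, Bhlhe40, Rcan1, Ptgs2, Gadd45g, Ppp1r15a, Pim3, Phlda1, Csrnp1, Ier2, Cebpd, Btg2 and Ccn1. By library, 80 genes were 2-fold higher in M3cKO PNX (2.25%), 51 in Foxo1cKO PNX (1.35%), 55 in WT PNX (1.47%) and 35 in sham (0.958%), while 22 (0.619%), 14 (0.371%), 8 (0.214%) and 9 (0.246%) were 2-fold lower. These genes were compared in the cells that the rule chose, so their differences describe the state and are not a test of it.

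The partners of the AP-1 transcription factor led. Fos, which pairs with Jun proteins, had 2969, 2608, 3055 and 2349 CPM in stress-state cells of M3cKO PNX, Foxo1cKO PNX, WT PNX and sham, against 287, 556, 601 and 384 CPM in the others, ratios of 10.3 (95% interval 9.73 to 11), 4.69 (4.53 to 4.86), 5.08 (4.92 to 5.25) and 6.12 (5.86 to 6.39). The other cells of M3cKO PNX had the lowest of the 4 levels, and its stress-state cells stood below those of WT PNX and above those of Foxo1cKO PNX and sham. Fosb had 438, 424, 809 and 317 CPM in stress-state cells and 36.9, 89.3, 117 and 96.0 CPM in the others. Junb had 1164, 569, 598 and 1274 CPM in stress-state cells against 235, 145, 144 and 239 CPM in the others, so its levels fell into a high pair, M3cKO PNX and sham, and a low pair, in both kinds of cell. Of the AP-1 and ATF list, which leaves out Atf3, 9, 7, 8 and 8 of 11 measured genes were at least 1.5-fold higher and none lower. Over all genes measured at 10 CPM, 3.33%, 2.44%, 2.69% and 1.77% were 1.5-fold higher and 4.69%, 1.88%, 2.45% and 1.70% lower. The other immediate early genes, a list without Egr1 and Ier3, had 17 of 23, 14 of 20, 13 of 21 and 12 of 21 genes higher and none lower.

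The 20 genes also held inhibitors and growth-limiting genes. Of the MAPK feedback inhibitors, 3 of 13, 4 of 13, 5 of 13 and 4 of 12 were 1.5-fold higher and 0, 1, 1 and 0 lower, and of the NF-kB regulators 3 of 20, 4 of 20, 5 of 20 and 3 of 19 were higher and 2, 0, 0 and 0 lower. Zfp36, whose protein binds and destabilises cytokine mRNAs, had 3110, 2655, 2642 and 3100 CPM in stress-state cells against 437, 575, 509 and 668 CPM in the others, ratios of 7.12, 4.61, 5.20 and 4.64. Nfkbiz, a nuclear regulator of NF-kB target genes, had 238, 152, 195 and 196 CPM against 36.0, 33.4, 24.7 and 37.6 CPM. Ppp1r15a, the phosphatase subunit that reverses the translational block of the integrated stress response, had 838, 330, 410 and 642 CPM against 175, 127, 143 and 183 CPM. Rcan1, an inhibitor of calcineurin, had 185, 263, 260 and 225 CPM against 56.9, 66.1, 67.7 and 84.6 CPM. The growth-limiting genes Btg2 and Gadd45g were 2.20- to 3.68-fold and 3.46- to 4.95-fold higher. Cdkn1a, the cell-cycle inhibitor p21, had ratios of 2.22, 1.85, 2.22 and 2.16.

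Of the genes tied to gp130, STAT3 and C/EBP, a list without Socs3, 6 of 17, 8 of 17, 9 of 18 and 6 of 17 were 1.5-fold higher and 0, 0, 1 and 1 lower. Cebpd, a C/EBP transcription factor induced through STAT3 and given with the rule genes as a marker of the state, had 1231, 678, 779 and 1196 CPM in stress-state cells against 437, 212, 291 and 552 CPM in the others, ratios of 2.82, 3.20, 2.68 and 2.17. Pim3, a kinase gene of the same response, was 3.89-, 2.87-, 2.92- and 3.19-fold higher, and Cish, another inhibitor of cytokine receptors, 2.44-, 2.15-, 2.20- and 1.74-fold. The receptor subunit gene Il6st itself, gp130, did not go the same way everywhere: it had 398, 1262, 1345 and 838 CPM in stress-state cells against 448, 790, 796 and 750 CPM in the others.

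Chaperone genes separated the libraries. Hspa1a, an inducible HSP70 gene, had 1485 CPM in stress-state cells of M3cKO PNX, 184 CPM in Foxo1cKO PNX, 145 CPM in WT PNX and 373 CPM in sham, against 232, 48.4, 38.7 and 164 CPM in the others. The near-identical Hspa1b, with which reads can be exchanged in counting, had 2981, 288, 219 and 703 CPM against 561, 103, 82.4 and 357 CPM. Hspb1, the small chaperone HSP27, was 3.49-, 2.39-, 2.73- and 1.94-fold higher. Of the chaperone list, 9 of 23 genes were 1.5-fold higher in M3cKO PNX, and 5 of 22, 5 of 23 and 4 of 23 in the other libraries. The unfolded protein and integrated stress list had 4 of 19, 2 of 18, 3 of 19 and 2 of 18 genes higher, with medians of -0.06, 0.01, 0.11 and -0.01 on the log2 scale against -0.07, -0.05, -0.06 and -0.06 for all genes. Hspa5, the chaperone of the endoplasmic reticulum that marks an unfolded protein response, had 1112, 669, 886 and 620 CPM against 886, 611, 736 and 431 CPM.

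Selp, P-selectin, which captures leukocytes on venous endothelium, had 207, 454, 600 and 167 CPM in stress-state cells against 83.7, 77.0, 89.6 and 42.0 CPM in the others. A single cell held 20.4% of its stress-state UMIs in M3cKO PNX and 25.3% in sham. With the cell of most Selp UMIs left out, its ratios on the log2(CPM + 5) scale were 1.92, 4.77, 6.03 and 2.78, below 2-fold in M3cKO PNX. When the same was done for every gene, 17 of the 20 genes met the rule in all libraries, and Selp, Ptgs2 and Ccn1 did not. Ptgs2, the inducible cyclooxygenase, had 72.8, 230, 359 and 146 CPM against 30.5, 57.5, 60.4 and 45.9 CPM. Icam1 had 1712, 671, 760 and 732 CPM against 657, 370, 388 and 437 CPM. Of the cytokine, chemokine and adhesion list, 6 of 14, 10 of 17, 11 of 17 and 5 of 13 measured genes were higher, and 2, 1, 1 and 1 lower. Apold1, an endothelial early-response gene, had 195, 345, 358 and 243 CPM against 39.4, 49.5, 71.3 and 107 CPM. Ccn1, a matrix-associated target of YAP and of immediate early factors, was 5.77-fold higher in M3cKO PNX and 2.04-, 2.06- and 2.11-fold in the others.

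Fewer genes were lower, and 3 of the 4 named here are known from arterial endothelium. In all, 4 of 3139 genes (0.127%) were at least 1.5-fold lower in all 4 libraries, and 48 (1.53%) at least 1.5-fold higher. Cxcl12, a chemokine of arterial endothelium, had 451, 940, 749 and 663 CPM in stress-state cells against 790, 1858, 1349 and 1201 CPM in the others. Sema3g, a semaphorin of arterial endothelium, had 583, 454, 519 and 509 CPM against 898, 860, 964 and 856 CPM. Hey1, an arterial Notch target, had 139, 113, 131 and 149 CPM against 224, 211, 227 and 257 CPM, and Neat1, a nuclear RNA, had 31.4, 67.7, 69.8 and 42.6 CPM against 85.1, 123, 125 and 76.0 CPM. When the other cells were weighted to the cluster makeup of the stress-state cells, 1 of the 4 genes still met this rule. Without the sham library the count was 13.

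**Figure D2:**
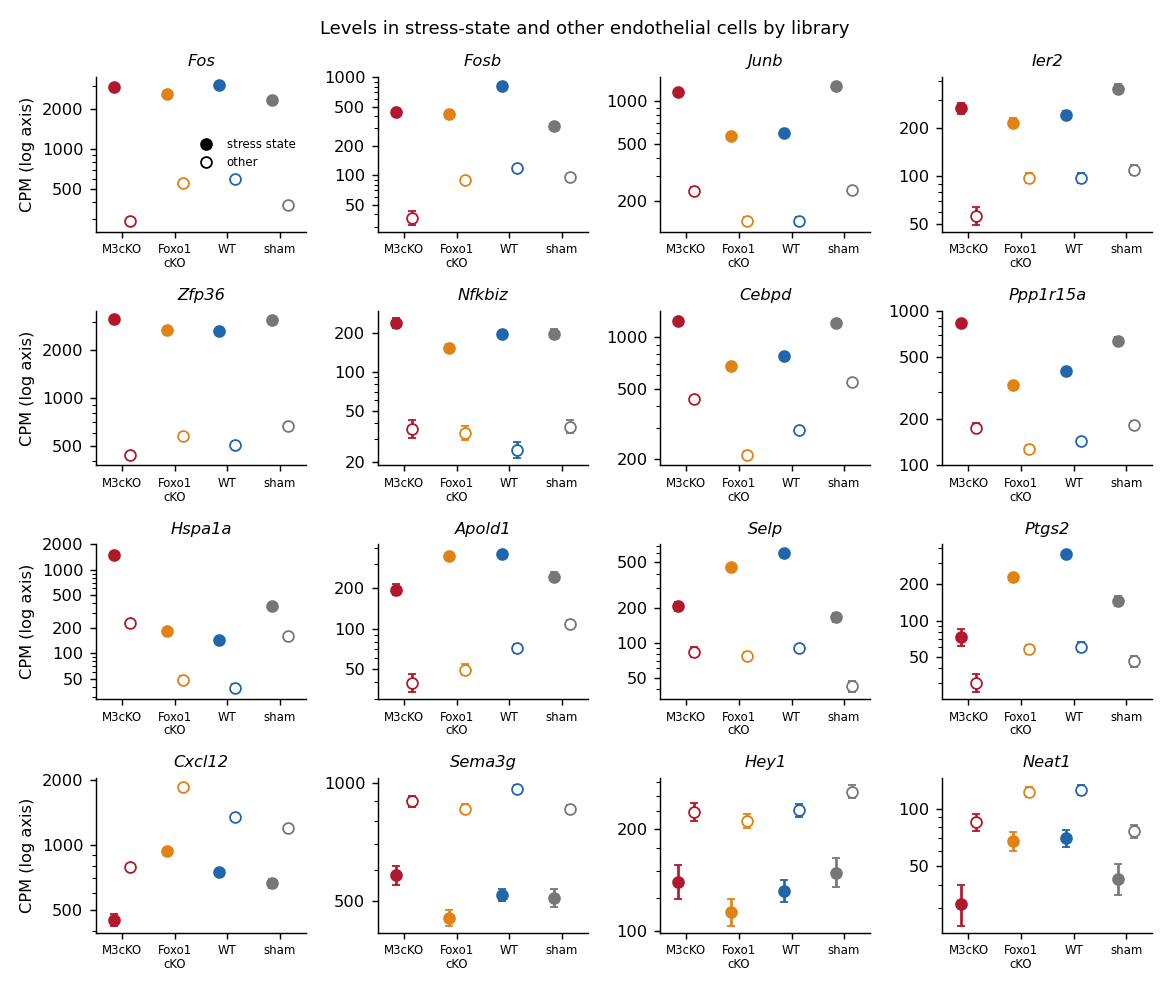
Levels (CPM, log axis) of 12 genes that were higher and 4 that were lower in stress-state cells (filled) than in other endothelial cells (open) in each library; bars are exact 95% Poisson intervals. Filled points lie above open points in every library for the first 12 genes and below them for Cxcl12, Sema3g, Hey1 and Neat1.

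Among 11 shear-responsive and Krüppel-like genes none was higher, and Klf2, the flow-induced factor, had 1747, 2161, 2407 and 2805 CPM in stress-state cells against 1704, 1681, 1906 and 2722 CPM in the others. No gene of the interferon list was 1.5-fold higher in any library. In the antigen presentation list none was higher and 0, 1, 3 and 0 of 19 were lower, with medians of -0.18, -0.23, -0.27 and -0.16 on the log2 scale against -0.07, -0.05, -0.06 and -0.06 for all genes; the MHC class II gene H2-Ab1 had 613, 402, 301 and 825 CPM against 782, 559, 533 and 1137 CPM. Rhoj, the small GTPase named in the study's title, had 323, 261, 284 and 290 CPM against 322, 241, 250 and 321 CPM. Foxo1, the targeted gene of 1 group, had 80.2 CPM in stress-state cells of Foxo1cKO PNX and 64.6 CPM in its other cells, while the stress-state cells of M3cKO PNX, WT PNX and sham had 190, 213 and 176 CPM and their other cells 183, 204 and 203 CPM.

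Promoter windows, from 250 bases before to 50 bases after a RefSeq gene start in GRCm38.p6, were available for 3 of the 4 rule genes and for 15 of the 20 genes higher in all libraries; Egr1, Nfkbiz, Bhlhe40, Phlda1, Ier2 and Cebpd had no entry. Searches were made on both strands for 5 motifs of factors known to act on such genes: the cAMP response element CRE (TGACGTCA), AP-1 (TGANTCA), STAT (TTCNNNGAA), and the CArG box and NF-kB motifs by their usual consensus. Neither the CRE nor the AP-1 letters contain the other. The upstream stretches of the 3 rule genes, and of the 3 higher genes with a CRE or with 2 kinds of motif, are shown to let the letters be compared; capitals mark the matches.
Socs3, chr11:117969367-117969530, minus strand: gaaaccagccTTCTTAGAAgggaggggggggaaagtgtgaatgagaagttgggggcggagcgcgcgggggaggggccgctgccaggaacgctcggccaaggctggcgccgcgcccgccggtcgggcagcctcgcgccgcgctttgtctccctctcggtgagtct
Ier3, chr17:35821593-35821712, plus strand: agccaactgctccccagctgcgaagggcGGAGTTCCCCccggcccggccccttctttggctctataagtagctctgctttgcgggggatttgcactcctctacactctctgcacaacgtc
Atf3, chr1:191183334-191183463, minus strand: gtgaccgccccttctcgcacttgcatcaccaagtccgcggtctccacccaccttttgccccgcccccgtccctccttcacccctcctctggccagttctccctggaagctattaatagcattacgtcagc
Ppp1r15a, chr7:45526269-45526388, minus strand: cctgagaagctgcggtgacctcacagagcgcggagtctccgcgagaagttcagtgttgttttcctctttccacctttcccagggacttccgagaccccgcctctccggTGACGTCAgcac
Btg2, chr1:134079156-134079331, minus strand: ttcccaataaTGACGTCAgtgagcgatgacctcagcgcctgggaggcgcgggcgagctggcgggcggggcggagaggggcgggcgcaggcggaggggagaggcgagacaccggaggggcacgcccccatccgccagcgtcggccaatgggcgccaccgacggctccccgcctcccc
Zfp36, chr7:28379229-28379348, minus strand: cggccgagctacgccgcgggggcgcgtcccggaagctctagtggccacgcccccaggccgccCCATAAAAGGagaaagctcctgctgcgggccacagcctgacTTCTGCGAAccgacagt
Socs3 held the STAT letters and Ier3 the NF-kB letters in capitals, and the Atf3 window held none of the 5 motifs. Zfp36 held a CArG box and a STAT match. Only the first listed window of each gene was searched, 27025 of 32851 windows, so other starts of a gene were not covered.

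Of the 15 higher genes with a window, 2 held a CRE (Ppp1r15a and Btg2, 13.3%, against 1.88% of 27025 genes), 1 an AP-1 motif (Selp, 6.67% against 7.93%), 3 a STAT motif (Apold1, Csrnp1 and Zfp36, 20% against 8.47%), 1 a CArG box (Zfp36, 6.67% against 1.57%) and 2 an NF-kB motif (Fos and Fosb, 13.3% against 4.35%). Matches describe the letters only.

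Cells thinned to 2000 UMIs were grouped by their rule-gene UMIs (0, 1 to 2, 3 to 5, 6 to 9, and 10 or more), which counts the cells below the threshold as well. Fos per 2000 UMIs was 0.503, 1.23, 2.76, 5.09 and 8.60 along these groups in WT PNX and 0.276, 0.606, 1.53, 2.65 and 7.35 in M3cKO PNX. Zfp36, Junb and Cebpd climbed likewise in every library. The whole AP-1 and ATF list had 4.80 UMIs in cells with no rule-gene UMI and 25.7 in the highest group of WT PNX, without Atf3. Selp did not climb step by step: in WT PNX it had 0.151, 0.199, 0.269, 0.246 and 1.73 UMIs, most of them in the highest group.

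Chaperones differed between libraries along this scale. The chaperone list had 15.3, 17.8, 21.8, 28.0 and 33.0 UMIs per 2000 in M3cKO PNX, against 9.44, 9.60, 10.1, 10.9 and 11.3 in WT PNX. Foxo1cKO PNX had 7.75 in the lowest group and 9.89 in the highest, and sham had 11.5 and 17.7. The junction and identity list stayed between 23.4 and 28.7 UMIs in every group of every library.

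**Figure D3:**
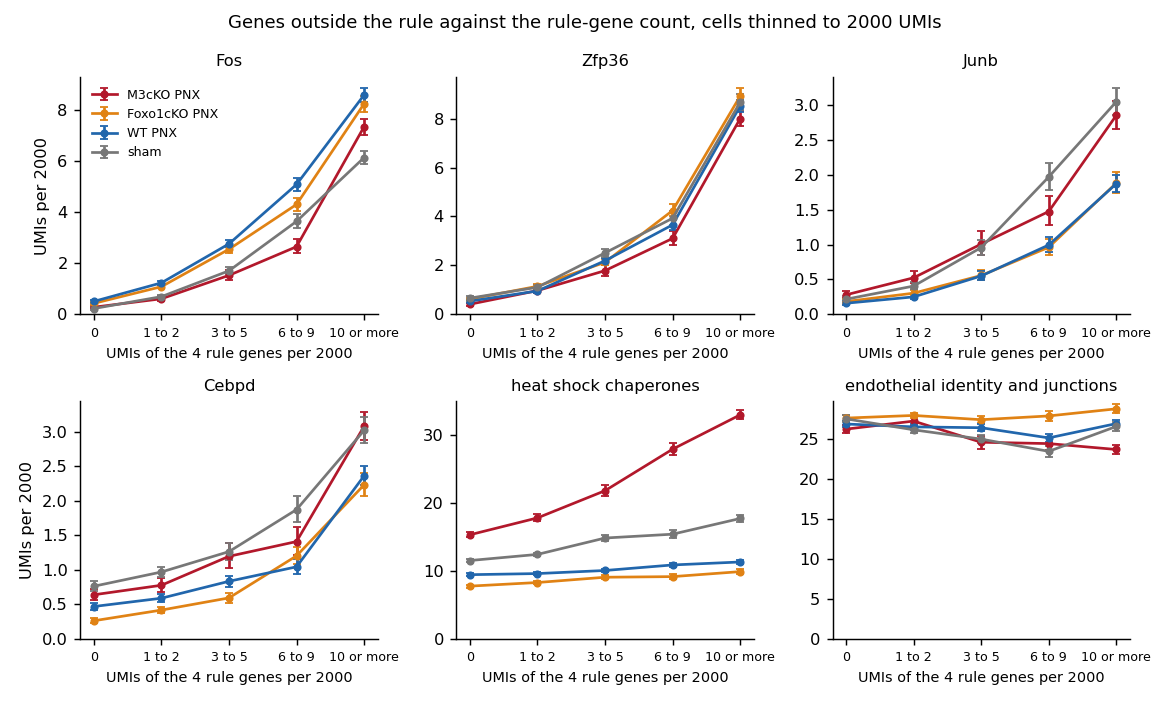
UMIs per cell (vertical axis) of 4 genes and 2 gene lists outside the rule against UMIs of the 4 rule genes in the same cell (horizontal axis), in cells thinned to 2000 UMIs, 1 line per library; bars are exact 95% Poisson intervals. Fos reaches 8.60 UMIs in WT PNX and 7.35 in M3cKO PNX, the chaperone list climbs to 33.0 in M3cKO PNX, and the identity list stays between 23.4 and 28.7.

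Cells of the gate were clustered without the genes of the pathway lists, and clusters were named only where markers of 1 class led. Stress-state cells were found in every endothelial class, in unequal shares. Venous-like clusters held 36.1% stress-state cells in M3cKO PNX (83 of 230), 42.4% in Foxo1cKO PNX (194 of 458), 51.3% in WT PNX (224 of 437) and 31.9% in sham (123 of 385). General capillary-like clusters held 8.70%, 16.3%, 18.1% and 13.3%, the lowest share of the capillary and venous classes in each library. At 2000 UMIs per cell the venous-like shares were 37.7%, 31.9%, 36.2% and 31.2%, and the general capillary-like shares 5.13% (2 of 39 cells), 15.9%, 15.2% and 15.3%. The venous-like interval lay above the general capillary-like interval in each library on both scales.

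Aerocyte-like cells, the large capillary cells of gas exchange, had 40.9%, 30.3%, 45.4% and 25.8% in the stress state, and 37.4%, 16.9%, 29.9% and 18.2% after thinning. Of their 2 clusters, 1 was led by haemoglobin genes and aerocyte markers. Arterial-like clusters had 14.96%, 16.4%, 21.5% and 11.8%, and 18.2%, 13.3%, 17.8% and 13.0% after thinning. A small systemic-like cluster was named on 3 markers and led by Igfbp3, Fabp4 and C1qtnf9. It had higher shares than the other named endothelial classes in Foxo1cKO PNX, WT PNX and sham. These were 52.4% (75 of 143), 63.9% (53 of 83) and 45.9% (17 of 37), with only 9 cells in M3cKO PNX. The 6 markers of this class included Apold1, 1 of the 20 genes higher in all libraries and not left out of clustering. Spry1 and Ndrg1, with median log2 ratios of 0.56 and 0.52, were markers too. The name and the share of this cluster may therefore rest in part on the same genes. In M3cKO PNX, 376 of the 668 stress-state cells lay in an unnamed cluster that drew 1399 of its 1919 cells from that library and was led by Zbtb16, Inhbb and Nr1d1. That cluster held 56.3% of the library's stress-state cells and 56.1% of its other endothelial cells. In Foxo1cKO PNX, WT PNX and sham it held 5.32%, 7.98% and 13.3% of stress-state cells and 1.91%, 2.14% and 3.74% of the others. Of its cells in these libraries, 52 of 106, 98 of 155 and 118 of 259 met the rule, close to the systemic-like shares. Thinned in Foxo1cKO PNX, the shares were 46.5% (20 of 43) here and 43.9% (47 of 107) in the systemic-like cluster.

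**Figure D4:**
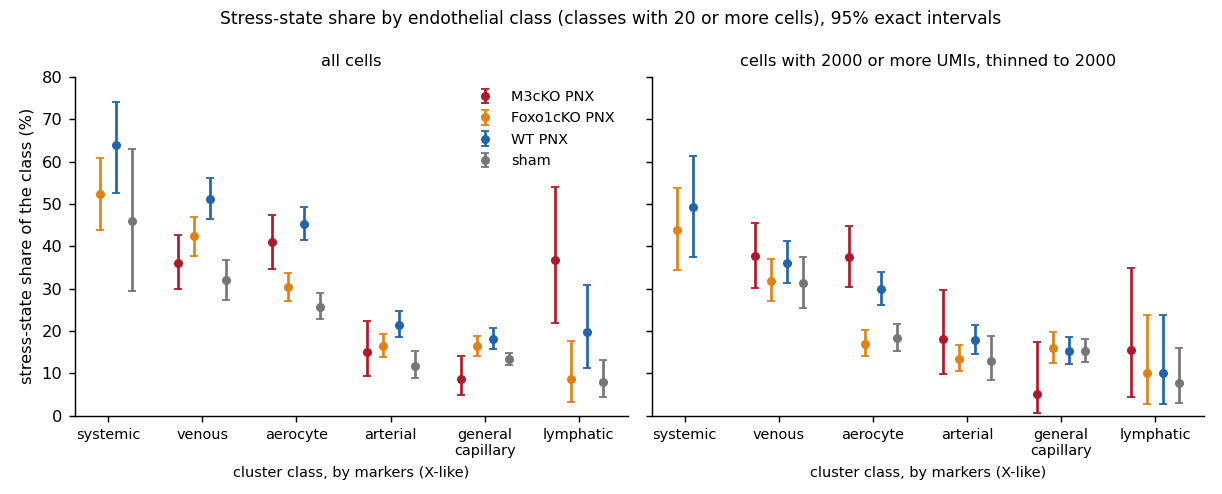
Share of each endothelial class in the stress state (vertical axis, percent) by library, for all cells (left) and for cells thinned to 2000 UMIs (right), for classes with at least 20 cells; bars are 95% exact binomial intervals. General capillary-like cells, at 8.70% to 18.1%, lie below venous-like cells, at 31.9% to 51.3%.

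Fos and Zfp36 were higher in stress-state cells of each class compared, and Selp was not. Classes and libraries with at least 20 cells on each side gave 23 pairs of stress-state and other cells. Fos, Fosb, Nfkbiz, Zfp36 and Junb were 2-fold higher in 23 of 23, Apold1 and Ppp1r15a in 22, and Btg2, Csrnp1 and Gadd45g in 21. Selp and Ptgs2 were 2-fold higher in 10 of 23 and above 0 in 15. Selp in venous-like stress-state cells had 1175 CPM in M3cKO PNX, 593 in Foxo1cKO PNX, 1224 in WT PNX and 579 in sham, against 737, 447, 536 and 320 CPM in other venous-like cells. In aerocyte-like stress-state cells it had 0, 0.880, 17.3 and 0 CPM, against 0, 4.03, 5.07 and 1.17 CPM in the others. The lower genes were less even: Cxcl12 was above 0 in 6 of 23 pairs, with a median log2 ratio of -0.38, and Neat1 in 1 of 23, with a median of -0.70.

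Within the systemic-like cluster the stress-state cells were apart from the rest in genes that clustering had not used. Selp had 3049 CPM in stress-state cells of Foxo1cKO PNX and 4675 CPM in those of WT PNX, against 86.1 and 308 CPM in the other cells of the cluster. Il6, a cytokine that signals through gp130, had 613 and 659 CPM against 25.1 and 69.3 CPM. Sele, E-selectin, had 355 and 363 CPM against 3.59 and 7.70 CPM, and Vcam1 421 and 325 CPM against 28.7 and 30.8 CPM. Il6st had 2455 and 3486 CPM against 617 and 1001 CPM, and Icam1 847 and 913 CPM against 104 and 123 CPM. Hspa1b went the other way, at 45.0 and 57.6 CPM in stress-state cells against 143 and 146 CPM in the others, while Fos had 3669 and 4433 CPM against 907 and 1055 CPM. Il6 in venous-like stress-state cells had 47.9, 29.4, 30.4 and 4.95 CPM (15, 25, 36 and 2 UMIs) in M3cKO PNX, Foxo1cKO PNX, WT PNX and sham. In other venous-like cells Il6 had 0, 4.93, 2.57 and 0 CPM. A cluster led by macrophage or monocyte genes held 2 of the 19 Il6 UMIs of stress-state cells and 112 of the 117 of other cells in M3cKO PNX, in 3 and 31 cells. In sham it held 96 of 129 and 367 of 373, in 11 and 39 cells. Whether the stress-state and other cells of the systemic-like cluster are 1 cell type was not tested.

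Between libraries, stress-state cells of M3cKO PNX and WT PNX differed most. Of 3755 genes, 115 were 2-fold higher in M3cKO PNX (3.06%) and 103 lower (2.74%). The median log2 ratio was -0.098 over these 3755 genes and -0.14 over all genes measured at 10 CPM. The other endothelial cells of the same libraries had 90 higher (2.35%) and 89 lower (2.32%), and 58 higher and 51 lower genes were shared, 50.4% and 49.5% of the stress-state lists and 64.4% and 57.3% of the others' lists. Over all genes measured at 10 CPM, 6.52% were 1.5-fold higher and 13.0% lower in stress-state cells, and 5.12% and 10.8% in the others. Of 12 clock and glucocorticoid genes, 11 were 1.5-fold higher in stress-state cells and 11 in the others. Nr1d1, a clock repressor, had 140 CPM in M3cKO PNX against 10.1 CPM in WT PNX in stress-state cells, and 148 against 10.7 CPM in others.

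In stress-state cells 11 of 23 chaperone genes were 1.5-fold higher and none lower in the same comparison, and in other cells 9 were higher and 1 lower. Hspa1b had 2981 CPM in stress-state cells of M3cKO PNX against 219 CPM in those of WT PNX, 13.6-fold (12.8 to 14.5), and 561 against 82.4 CPM in other cells. Dnajb1, an HSP70 partner, had 495 against 150 CPM in stress-state cells and 139 against 88.9 CPM in others. Hsp90aa1 had 1612 against 553 CPM, and 779 against 472 CPM in others. Hspa1a held within classes, with 1628 CPM in aerocyte-like stress-state cells of M3cKO PNX against 180 CPM in those of WT PNX, and 1555 against 145 CPM in venous-like ones.

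Of 17 cytokine, chemokine and adhesion genes, 3 were 1.5-fold higher in stress-state cells of M3cKO PNX and 8 lower. In the other cells 5 of 14 measured genes were higher and 4 lower. Icam1 had 1712 CPM in stress-state cells of M3cKO PNX against 760 CPM in those of WT PNX, and 4002 against 1431 CPM in venous-like ones. Other endothelial cells had 657 against 388 CPM of Icam1. Selp had 207 against 600 CPM over all stress-state cells, and 1175 against 1224 CPM in venous-like ones; with the cell of most UMIs left out of each, the venous-like levels were 904 against 1169 CPM. Vcam1 had 104 against 232 CPM over all and 616 against 757 CPM in venous-like ones. The cell makeup differed too, and its part in these levels was not tested: venous-like and systemic-like cells were 12.4% and 0.299% of stress-state cells in M3cKO PNX and 18.2% and 4.32% in WT PNX. Another 3 genes were lower in venous-like cells too. Il6st had 866 CPM in M3cKO PNX against 3450 CPM in WT PNX, and Ptgs2 454 against 1483 CPM. Ackr1, the venous chemokine-binding receptor, had 16.0 against 477 CPM (5 against 565 UMIs). All 3 were also lower in the other venous-like cells of M3cKO PNX. There Il6st had 1357 against 3484 CPM, Ptgs2 174 against 552 CPM and Ackr1 68.1 against 303 CPM. The venous-like stress-state cells lay in 2 clusters, 80 and 3 cells in M3cKO PNX and 159 and 65 in WT PNX.

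Stress-state cells of Foxo1cKO PNX gave fewer such genes against WT PNX. Of 3695 genes, 10 were 2-fold higher (0.271%) and 11 lower (0.298%), against 10 (0.263%) and 8 (0.211%) of 3796 in other cells. Foxo1 itself was among the lower ones, with 80.2 CPM in Foxo1cKO PNX against 213 CPM in WT PNX, 2.66-fold lower (2.35 to 3). Over all genes at 10 CPM, 0.962% were 1.5-fold higher and 0.765% lower in stress-state cells, and 0.783% and 1.35% in the others. Of 20 interferon genes, 9 were 1.5-fold higher and none lower in stress-state cells, and 7 of 20 in the others; Isg15, an interferon-induced ubiquitin-like protein, had 51.3 against 22.98 CPM. The 4 rule genes had ratios of 0.814 (Atf3), 0.852 (Egr1), 1.05 (Socs3) and 0.830 (Ier3), and Fosb had 424 against 809 CPM. Ackr1 had 63.5 against 212 CPM.

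Stress-state cells of WT PNX and sham differed in 86 higher genes (2.26%) and 66 lower genes (1.74%) of 3804, of which 56 and 46 were shared with the other endothelial cells, where 97 (2.49%) and 71 (1.82%) of 3900 met the rule. Over all genes at 10 CPM, 9.36% were 1.5-fold higher and 5.91% lower in stress-state cells, and 9.52% and 5.42% in the others. Of the 8 higher genes named by the size of their ratio, Top2a, Mki67, Ube2c, Prc1, Cdk1 and Tpx2 are cell-cycle genes, and Ube2c and Cdk1 turned to -0.67 and -0.65 on the log2 scale among cells with at most 5% mitochondrial UMIs. In stress-state cells of sham these genes had only 21 to 49 UMIs each. For each gene in that order, 1 cell held 48.5%, 44.9%, 62.1%, 44%, 45.5% and 52.4% of them. Top2a had 160 CPM in WT PNX against 12.3 CPM in sham, and 243 against 11.1 CPM in other cells. Of 17 cytokine, chemokine and adhesion genes, 8 were 1.5-fold higher and 4 lower in stress-state cells. In the other cells 6 of 14 measured genes were higher and 3 lower. Icam1 had 760 against 732 CPM. Selp had 600 against 167 CPM, Sele 55.7 against 9.71 CPM and Vcam1 232 against 85.5 CPM. Other endothelial cells had 89.6 against 42.0 CPM of Selp, 10.5 against 2.56 CPM of Sele and 135 against 64.9 CPM of Vcam1. Systemic-like cells were 4.32% of stress-state cells in WT PNX and 1.91% in sham, and 1 cell held 25.3% of the stress-state Selp UMIs of sham. The part of cell makeup in these levels was not tested. In venous-like stress-state cells Selp had 1224 against 579 CPM and Sele 133 against 37.1 CPM.

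Fosb and Junb differed in opposite directions between these 2 libraries. Fosb had 809 CPM in stress-state cells of WT PNX against 317 CPM in those of sham, 2.56-fold higher (2.37 to 2.75), and Junb had 598 against 1274 CPM, 2.13-fold lower (2.03 to 2.23). Both directions held in venous-like (Fosb 1351 against 570 CPM, Junb 692 against 1429 CPM) and aerocyte-like cells (Fosb 645 against 146 CPM, Junb 518 against 873 CPM). General capillary-like cells had Fosb 519 against 208 CPM and Junb 619 against 1298 CPM, although they lay in different clusters, 33 and 145 cells in WT PNX and 303 and 16 in sham. Other cells of the venous-like, aerocyte-like and general capillary-like classes went the same ways. Their Fosb was 230 against 74.9, 167 against 54.6 and 59.3 against 26.1 CPM. Their Junb was 167 against 289, 172 against 245 and 115 against 152 CPM. Other cells of the unnamed clusters had Fosb 52.1 against 88.7 CPM. Of the 19 antigen presentation genes 13 were lower and none higher, and 12 of 19 in the other cells: H2-Eb1, an MHC class II gene, had 48.5 against 426 CPM. Hspa1a had 145 against 373 CPM. The 3 comparisons share libraries, so their results are not independent.

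**Figure D5:**
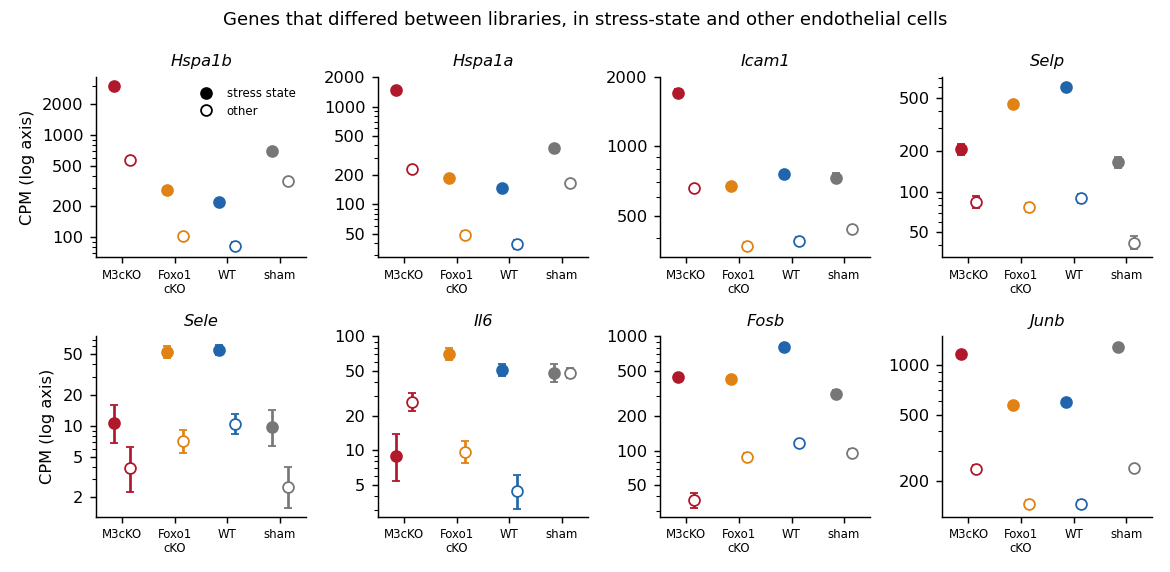
Levels (CPM, log axis) of 8 genes in stress-state (filled) and other (open) endothelial cells of each library; bars are exact 95% Poisson intervals. Hspa1b and Hspa1a are highest in M3cKO PNX in both kinds of cell, Selp is highest in stress-state cells of WT PNX, and Fosb and Junb order the stress-state cells of WT PNX and sham in opposite ways.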

How the data were processed

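Single-cell RNA sequencing of CD31-selected, CD45-depleted mouse lung cells gave 1 library per group: M3cKO PNX, Foxo1cKO PNX, WT PNX and sham. The deposited files hold raw UMI counts per gene and barcode, made by the authors with Cell Ranger, version 2.1.1 per the labels' protocols and software version 3.0.0 per the file headers, on mm10. The 4 matrices hold 7617 to 9266 barcodes and 16197681 to 30445999 UMIs each, and no barcode has fewer than 500 UMIs.

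Counts were summed over the cells of each kind in each library and scaled to CPM. Summed depth was 2130537 to 5526426 UMIs for stress-state cells and 4361862 to 8165124 for other endothelial cells, and exact Poisson, binomial and conditional ratio intervals at 95% cover counting error only. Ratios used log2(CPM + 5), a fold of 2 with the higher side at 50 CPM, and for gene lists a fold of 1.5 at 10 CPM. No test between groups was made, since each has 1 library and the cells were chosen by their own transcripts. Barcodes with the highest doublet scores (Scrublet, a share set by the number of barcodes) were kept and left out in an alternative. Clusters (Leiden, resolution 1, 2000 variable genes, 40 components, 20 neighbours) were named from fixed markers with at least 3 among the leading genes. The gene calls were tried on simulated summed counts with counting error alone, and genes at 100 CPM or more were changed. Of 50 genes changed 2.5-fold each way, 49 or 50 were recovered in each library, and 0 unchanged genes were called. The simulation held no spread between cells or libraries and no choice of cells by their transcripts. It therefore says nothing about errors from these.

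The members and gene lists were chosen with earlier results of these data known. Named genes were up to 25 higher and 12 lower in all libraries, 8 each way per library comparison, 4 per list, the rule genes, Cebpd, Foxo1 and Rhoj; genes named outside these were chosen after their values were seen. Alternatives covered the mitochondrial limit, member threshold, gate, doublets, sex type, depth, pseudocount, minimum level, scaling, cluster makeup and single libraries. Python 3.11.15, numpy 2.4.6, scipy 1.17.1, pandas 2.3.3, scanpy 1.11.5, scikit-image 0.26.0 and igraph 0.11.9 were used. Promoter windows are from RefSeq GRCm38.p6.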

Additional observations from a re-analysis of the deposited data

Results flagged for a closer look

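Il6 moved in opposite directions between libraries. Its log2 ratio of stress-state to other endothelial cells was 2.58 in WT PNX, with 51.2 against 4.41 CPM, and -1.19 in M3cKO PNX, with 8.92 against 26.8 CPM. In sham it had 48.2 against 47.7 CPM. A cluster led by macrophage or monocyte genes held 2 of 19 UMIs in stress-state cells and 112 of 117 in other cells of M3cKO PNX, and 96 of 129 and 367 of 373 in sham. A single cell held 31.6% of its UMIs among stress-state cells of M3cKO PNX and 30.2% in sham. Thbs1, the matrix protein thrombospondin 1, had a log2 ratio of 0.67 in WT PNX (146 against 89.6 CPM) and -0.84 in M3cKO PNX (56.3 against 105 CPM). The difference between libraries was not tested for either gene.

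Cells outside the endothelial gate also met the rule. Of cells with Ptprc and without endothelial UMIs, 6.98% did so in M3cKO PNX (92 of 1318), 2.54% in Foxo1cKO PNX (19 of 749), 3.33% in WT PNX (20 of 601) and 4.95% in sham (5 of 101). These shares lie below the endothelial shares of the same libraries.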

How the results depend on the processing

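No paired analysis was possible because each group has 1 library and no test was made. The count of 20 genes 2-fold higher in all libraries was 15 to 26 under the alternatives run, with 13 to 20 of the 20 genes shared. The stress-state share became 29.5% (M3cKO PNX) and 35.5% (WT PNX) at 5% mitochondrial UMIs, 36.0%, 40.4%, 47.9% and 31.1% (M3cKO PNX, Foxo1cKO PNX, WT PNX, sham) with 4 UMIs and 2 genes, 16.6%, 12.6%, 16.9% and 9.58% with 10 UMIs and all 4 genes, 29.6%, 28.4%, 33.1% and 25.9% in male-type cells, and, thinned, 19.2% in Foxo1cKO PNX and 23.8% in WT PNX. The 4 genes 1.5-fold lower in all libraries became 8 at 5% mitochondrial UMIs, 2 with the looser threshold, in male-type cells and after thinning, 1 with others weighted to the stress-state clusters, 13 without the sham library and 7 with the cell of most UMIs of each gene left out.

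For M3cKO PNX against WT PNX, the 103 lower genes became 199 at 5% mitochondrial UMIs, 67 with a pseudocount of 20 CPM, 211 with a minimum of 20 CPM and 53 with 100 CPM. For Foxo1cKO PNX against WT PNX, the 10 higher genes became 41 at 5% mitochondrial UMIs and in male-type cells, 6 with a pseudocount of 20 CPM, 19 and 3 with a minimum of 20 and 100 CPM, 54 in general capillary-like clusters and 6 without genes that had over 20% of their UMIs in 1 cell. Its 11 lower genes became 18 at 5% mitochondrial UMIs and at 20 CPM, 67 in general capillary-like clusters, and 5 without clusters of other cell types or without such genes. For WT PNX against sham, the 86 higher genes became 146 in male-type cells, 207 at 20 CPM and 39 at 100 CPM, and the 66 lower genes 130 in male-type cells and 41 with a pseudocount of 20 CPM. Leaving out clusters of other cell types, genes with 1 dominant cell, or the cell of most UMIs was chosen after seeing the data.

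Ube2c and Cdk1 turned to -0.67 and -0.65 on the log2 scale (WT PNX against sham, 5% mitochondrial UMIs). Without that limit, stress-state cells of sham had 29 and 22 UMIs of these genes, and 1 cell held 62.1% and 45.5% of them. Between Foxo1cKO PNX and WT PNX, Gdpd3 turned to -0.048 in male-type cells, and Rgs16 to -0.53 and Ackr1 to 0.61 in general capillary-like clusters. The Ackr1 value rests on 1 UMI in general capillary-like stress-state cells of Foxo1cKO PNX, against 0 in those of WT PNX. It is a value at the floor and no reversal can be read from it. The cause of the other turns was not tested. M3cKO PNX against WT PNX in general capillary-like clusters was not run, with 14 stress-state cells and 26848 UMIs against a minimum of 200000.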

Other observations

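Haemoglobin and other erythroid markers summed to 195 CPM in stress-state cells of M3cKO PNX and 292 CPM in those of Foxo1cKO PNX, against 4.13 and 11.5 CPM in the other endothelial cells. In WT PNX and sham they summed to 12.7 and 2.24 CPM in stress-state cells, against 23.4 and 6.01 CPM. Only 0.299% of stress-state cells in M3cKO PNX and 2.04% in Foxo1cKO PNX had any such UMI. Mt1, which encodes a metal-binding metallothionein, had 67.1, 105, 68.6 and 32.5 CPM in stress-state cells of M3cKO PNX, Foxo1cKO PNX, WT PNX and sham, against 42.0, 6.11, 9.55 and 11.1 CPM in the others. A single cell held 37.8%, 10.6%, 13.5% and 17.2% of its stress-state UMIs in these libraries.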
